A study of Mus musculus with 6 samples.

Results

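The WNK kinases and the transporters that set cell volume were read here as 8 genes: the kinases Wnk4 and Wnk1, the kinases Oxsr1 and Stk39 that act below them, the cotransporters Slc12a2, Slc12a4 and Slc12a7, and the potassium channel Kcnn4. Their members were all probe sets that the array annotation assigns to 1 of these genes alone, which gave 16 of the 45037 probe sets; no probe set named one of them together with another gene. The genes were chosen by function and with the difference in intensity between knockout and control mice already known, and Wnk4 was selected on the size of that difference. The values below are therefore a description, and no call of Wnk4 is used as support for the set.

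The study compared CD71+Ter119+ erythroid progenitors, sorted from the bone marrow of female mice 6 weeks old, on Affymetrix arrays. In the 3 knockout mice (Bcl11a fl/fl EpoR-Cre+) both Bcl11a alleles carry sites for Cre, which is driven by the erythropoietin receptor gene and so acts in the red cell lineage. The 3 control mice were Bcl11a +/+, and no Cre is named for them, so effects of Cre or of the receptor allele and of the loss of Bcl11a cannot be told apart. Each mouse gave 1 array, and the number of arrays limits the precision.

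Red cells lose water and volume as they mature, and their volume follows the salt they hold. WNK kinases, named for lacking a lysine at the usual place in the catalytic site, respond to chloride and osmotic stress and phosphorylate Stk39 (SPAK) and Oxsr1 (OSR1). Those kinases in turn switch on Slc12a2 (NKCC1), which carries sodium, potassium and chloride into the cell, and switch off the potassium-chloride cotransporters such as Slc12a4 (KCC1) and Slc12a7 (KCC4), which carry salt out. Kcnn4, the Gardos channel, lets potassium out when calcium rises and can dehydrate the red cell.

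The arrays had median intensities between 67.5 and 70.9. Bcl11a itself was read by 7 probe sets, of which 0 passed the test (limma, two-sided, Benjamini-Hochberg adjustment over all probe sets, threshold 0.05); the brightest had intensities of 1286, 1419 and 1190 in the knockout mice, against 1475, 1553 and 1450 in the control mice. The sources used here do not place these probes relative to the deleted part, so they do not check the genotype. Hba-x, the embryonic zeta globin gene that BCL11A is known to hold silent, read 18067 to 21360 in the knockout mice and 14.3 to 33.4 in the control mice. Erythroid markers were bright on every array. The 8 neutrophil markers were too, with summed intensities of 165863 to 173350 in the knockout mice and 179524 to 180351 in the control mice, although the sort was for erythroid cells.

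Of the 16 member probe sets 1 passed the test, that of Wnk4, and 15 did not; over all probe sets 0.147% passed, 0.140% with higher and 0.00666% with lower values in the knockout mice. The log2 changes of the other 15 ran from -0.46 to 0.61. In 3 probe sets all knockout values exceeded all control values (10.6% of all probe sets), the 1 of Wnk4 and both of Kcnn4. In another 3, each a dimmer or second probe set of Wnk1, Stk39 or Slc12a2, every knockout value lay below (8.91% of all). With each gene taken at its brightest probe set, 6 of the 8 genes had a log2 change above 0 and 2 had one below, against 49.8% above 0 over all 18193 genes. Of the 16 changes 3 turned sign when 1 mouse was left out: that of the brightest probe set of Wnk1, -0.05, was 0.03 without control mouse 1, and 2 dimmer probe sets, of Wnk1 and Slc12a2, did so as well. The median was 0.08 for the 8 genes and 0.00 for all genes, and averaging the probe sets of each gene gave a median of 0.00 for the members. Without Wnk4 and Kcnn4, the log2 changes of the member probe sets lay between -0.46 and 0.16.

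**Figure D1:**
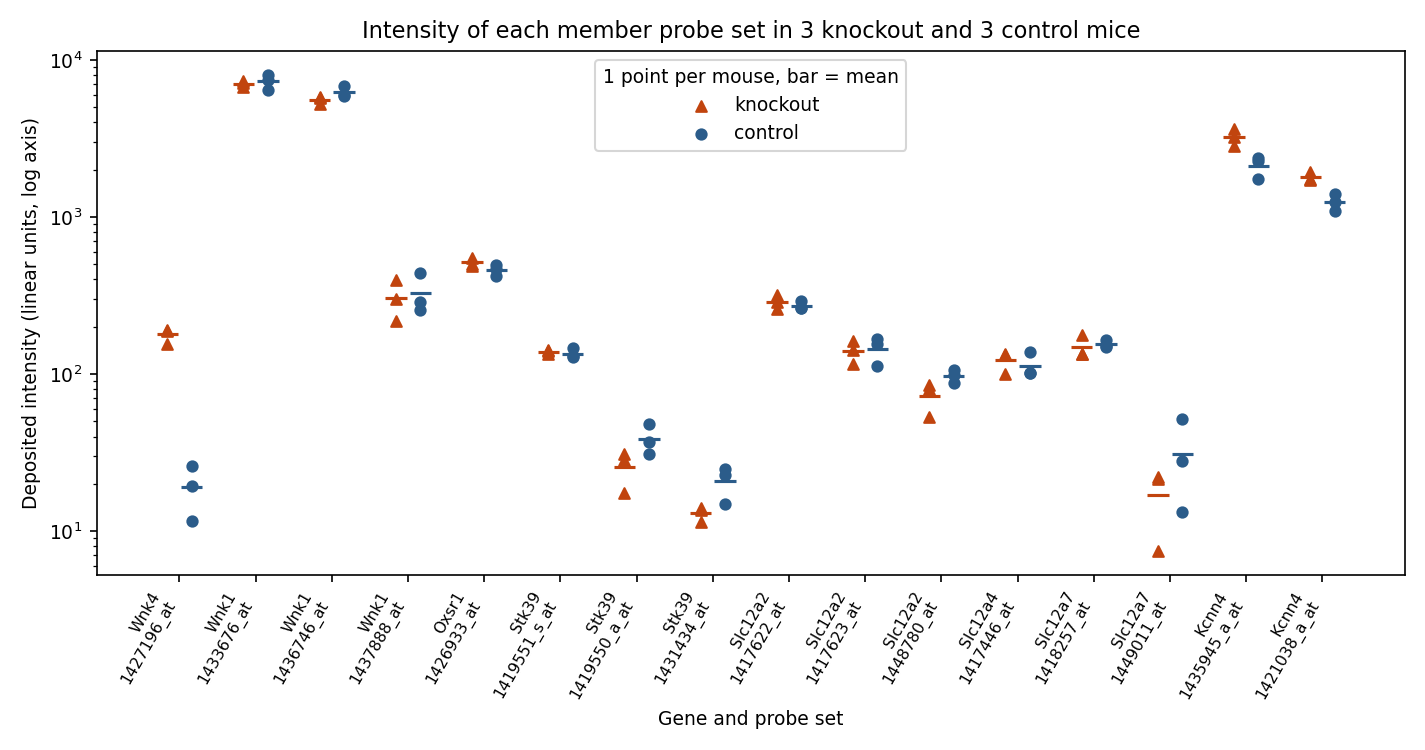
Deposited intensity (vertical log axis) of the 16 member probe sets, with 1 triangle per knockout mouse and 1 circle per control mouse and a bar at each group mean. The knockout values of Wnk4 (156 to 191) sit clear of its control values (11.6 to 25.9), the 2 probe sets of Kcnn4 are shifted upward without a wide gap, and most other pairs of groups share the same range.

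Wnk4, a kinase best known from the kidney, where it controls salt reabsorption and blood pressure, is read by 1 probe set. Its intensity was 188, 156 and 191 in the knockout mice, against 11.6, 25.9 and 19.5 in the control mice. All 3 knockout values were high and close together, and the groups were far apart. The means were 179 ± 19.2 in the knockout mice and 19.0 ± 7.19 in the control mice (SD, n = 3 each), a ratio of 9.40. On the scale of log2(intensity + 16) the change was 2.49 ± 0.18 (SE), with a 95% interval from 2.06 to 2.92, the size by which the gene ranks 12 among the 39 genes (0.214%) whose brightest probe set passed. The mean of Wnk4 stood at percentile 66.0 of all probe sets in the knockout mice and at percentile 22.9 in the control mice, a place on the array and not an amount of RNA. The table has no detection calls, so the control level cannot be told from background, and both the ratio and the log2 change depend on that low end: the change was 3.23 with a pseudocount of 1 and 1.55 with one of 64.

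The fit's call of Wnk4 rests on few arrays and on the low control values. It ended without knockout mouse 1 (limma, adjusted p = 0.0810), without knockout mouse 3 (adjusted p = 0.0769), without control mouse 3 (adjusted p = 0.0573) and when the pseudocount was 1 (adjusted p = 0.0662). A fit with the mouse number as a replicate block lost the call too (limma, adjusted p = 0.152), though the labels name no pairing. The log2 change itself stayed between 2.33 and 2.63 whichever mouse was left out. Among the 10322 probe sets whose control mean was at or below that of Wnk4, 3 had a knockout mean at or above that of Wnk4, including its own. The others were a probe set that the annotation gives no gene and that of Gng13, a G protein gamma subunit. That group was looked for after the values were seen.

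The 5 genes whose brightest probe sets moved most like Wnk4 over the 6 arrays were Spns2, Zfp790, Itga2b, Ppp1r13b and Pepd. Likeness was the root mean square difference between log2 values, each taken from its own control mean, and it ran from 0.16 for Spns2, which exports sphingosine-1-phosphate, to 0.36 for Pepd, a dipeptidase. Spns2 had intensities of 1530, 1672 and 1651 in the knockout mice and 233, 283 and 286 in the control mice. Its log2 change was 2.53, next to 2.49 for Wnk4, although its control signal was far above the dim end of its array. Itga2b, the integrin CD41 of platelets and early progenitors, read 3204, 3683 and 3673 in the knockout mice and 539, 461 and 538 in the control mice. Likeness of this kind mostly ranks genes by the size of their change between the same 2 groups, and it depends on the pseudocount: with one of 64 Spns2 ranked 98 and Itga2b ranked 439, while with one of 1 they ranked 3 and 2.

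**Figure D2:**
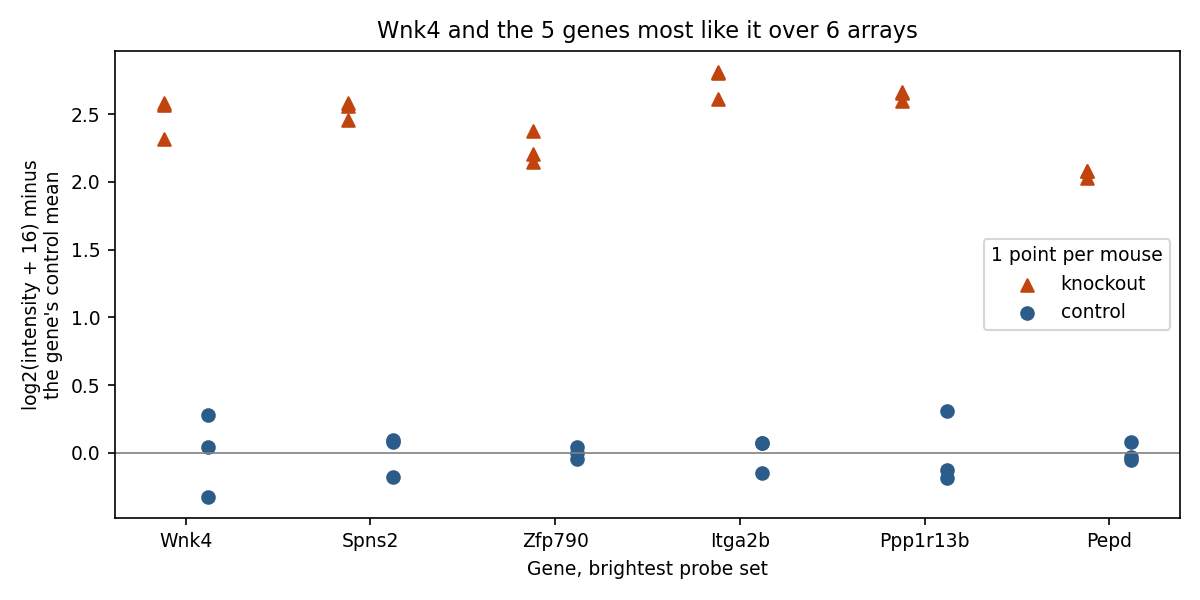
Log2(intensity + 16) minus each gene's own control mean (vertical axis) for Wnk4 and the 5 genes most like it, with triangles for the 3 knockout mice and circles for the 3 control mice. Among the 3 knockout values of Wnk4, that of mouse 2 (intensity 156) is the lowest. The control values of Wnk4 spread more widely on this scale than those of Zfp790 or Pepd.

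Wnk4 lies on chromosome 11, as Bcl11a does, so its neighbours were read as well. Of the 5 measured genes on each side, from Ccr10 to Aoc3 in the order of the RefSeq annotation, 0 of 10 passed the test (limma), 2 had an unadjusted p under 0.05 (12.7% of all genes) and 1 was called when the fit used an intensity trend (3.21% of all probe sets). Their log2 changes ran from -0.08 to 0.41, with a median of 0.07. Vps25, an endosomal sorting subunit and the nearest measured gene before Wnk4, had 64.9, 53.7 and 83.5 in the knockout mice, against 54.5, 70.4 and 67.0 in the control mice. Coa3, a cytochrome c oxidase assembly factor and the nearest after it, had 1152, 1248 and 1287 in the knockout mice and 1110, 1194 and 1303 in the control mice. The 2 groups overlapped in both of these flanking genes. In 4 of the 10, Ezh1, Cntd1, Becn1 and Psme3, the knockout values all lay above the control values (12.3% of all genes at their brightest probe set). Psme3, a proteasome activator, had the highest change, 0.41 ± 0.13 (SE; limma, adjusted p = 0.292). The suffix _x_at of the Cntd1 probe set and _s_at of those of Becn1 and Coa3 mark probes that can match several transcripts. Their values may therefore not be of these genes alone.

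**Figure D3:**
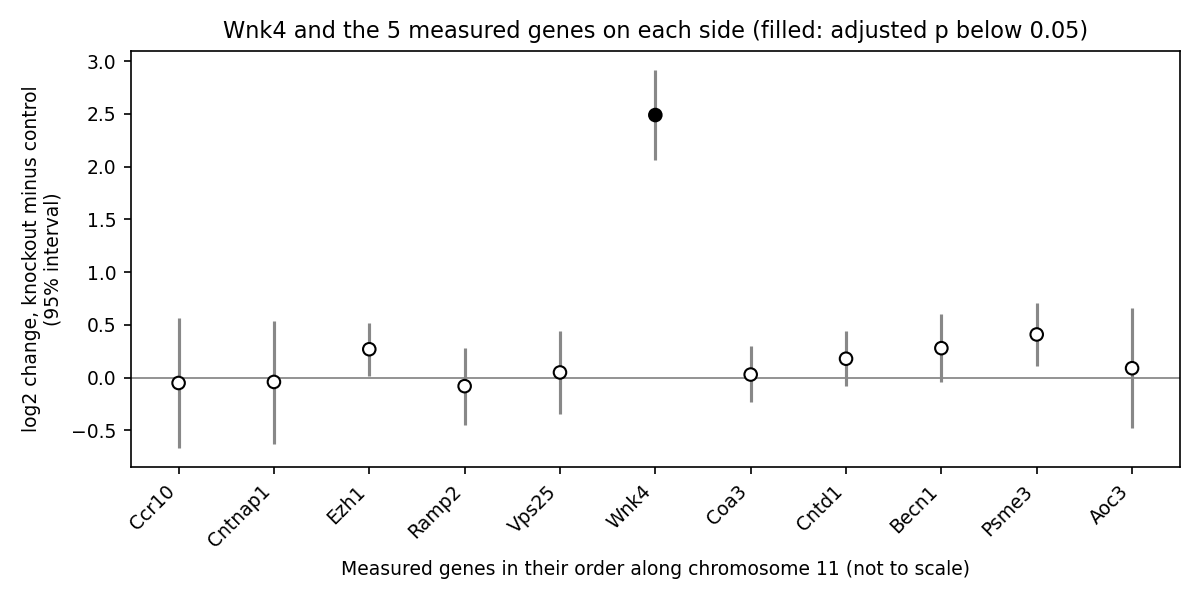
Log2 change, knockout minus control, with its 95% interval (vertical axis) for Wnk4 and the 5 measured genes on each side, in chromosome order but not to scale. Wnk4 stands alone at 2.49, while the 10 neighbours lie between -0.08 and 0.41.

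The stretch just before the start of each WNK gene is shown so that the member with the widest gap between the groups can be set beside its bright relative. Both sequences are from RefSeq on GRCm38.p6, written 5′ to 3′ along the strand of the gene up to the base before the annotated gene: chr11:101260317-101260536 on the plus strand for Wnk4 and chr6:120038696-120038905 on the minus strand for Wnk1. Capitals mark matches to the Krüppel-like factor box described after them.
Wnk4: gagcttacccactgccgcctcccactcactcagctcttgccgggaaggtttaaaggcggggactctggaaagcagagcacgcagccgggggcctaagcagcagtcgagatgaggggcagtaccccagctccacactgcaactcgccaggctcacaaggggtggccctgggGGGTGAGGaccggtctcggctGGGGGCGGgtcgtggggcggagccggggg
Wnk1: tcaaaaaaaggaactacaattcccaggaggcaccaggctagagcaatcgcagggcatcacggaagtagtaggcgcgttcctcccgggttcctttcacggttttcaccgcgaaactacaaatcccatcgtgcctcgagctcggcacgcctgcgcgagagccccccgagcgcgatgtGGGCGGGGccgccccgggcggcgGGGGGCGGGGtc
The Wnk4 stretch holds 2 such matches and the Wnk1 stretch 3, of which 2 overlap each other, and their GC contents are 68.2% and 64.8%.

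Motifs were searched on both strands in windows from 250 bases before to 50 bases after each start. Of these, 8 were used here, for 7 of the 8 genes. Slc12a2 was left out, and the 2 windows of Slc12a7 overlap each other, so they are not separate promoters. The BCL11A motif TGACCA was in 0 of the 8 windows, and in 13.6% of all 32851 windows. The GATA motif AGATAA was in 0 of 8 as well, and in 11.2% of all. The Krüppel-like factor box CCNCNCCC was in 8 of 8, and in 49.5% of all. The full windows of Wnk4 and Wnk1, which reach past the stretches shown, each held 3 matches to the Krüppel-like factor box and 0 to the other motifs. A missing match says nothing about binding elsewhere.

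Wnk1, the broadly expressed WNK kinase, was bright and did not pass the test. Its brightest probe set had intensities of 6699, 7108 and 7322 in the knockout mice, against 8064, 6426 and 7427 in the control mice, a log2 change of -0.05 (95% interval -0.34 to 0.24; limma, adjusted p = 0.910). The second had 5212, 5687 and 5838 in the knockout mice and 6817, 5913 and 6012 in the control mice, a change of -0.16 from -0.42 to 0.10 (adjusted p = 0.594). The groups overlapped in the first and not in the second, where the closest values were 5838 and 5913. The third and dimmest had 302, 217 and 398 in the knockout mice and 443, 256 and 289 in the control mice, with overlapping groups.

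Oxsr1, a direct substrate of WNK kinases, had intensities of 505, 489 and 549 in the knockout mice and 467, 493 and 418 in the control mice. Knockout mouse 3 was highest, but the groups overlapped, and the log2 change of 0.16 (95% interval -0.11 to 0.42) did not pass (limma, adjusted p = 0.602). Stk39, its close relative, gave different readings on its 3 probe sets. The brightest, whose _s_at suffix marks probes that can match several transcripts, had 142, 135 and 140.0 in the knockout mice and 147, 128 and 129.6 in the control mice, a change of 0.04 from -0.20 to 0.28. The groups overlapped there. The second had 17.5, 28.4 and 30.9 in the knockout mice and 36.8, 47.8 and 30.9 in the control mice, a change of -0.39 (adjusted p = 0.439). The dimmest had 11.4, 14.0 and 13.6 in the knockout mice and 24.9, 22.9 and 14.8 in the control mice, a change of -0.34 with groups that did not overlap (adjusted p = 0.394). The dim readings had lower means in the knockout mice and the bright one had near-equal means, and none passed.

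Slc12a2, the importer that WNK signalling switches on, was also read differently by its 3 probe sets. The brightest had intensities of 288, 258 and 318 in the knockout mice and 263, 290.2 and 264 in the control mice, a log2 change of 0.07 (95% interval -0.21 to 0.35). The second had 142, 116 and 163 in the knockout mice and 113, 167 and 156 in the control mice, a change of -0.04. The groups overlapped in both. The dimmest had 80.7, 53.1 and 84.8 in the knockout mice and 106, 98.7 and 87.5 in the control mice, a change of -0.37 from -0.78 to 0.04 (limma, adjusted p = 0.448), with knockout mouse 2 lowest and no overlap.

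Neither exporter passed the test. Slc12a4, the potassium-chloride cotransporter found in most cells, had intensities of 133, 134 and 100.1 in the knockout mice and 101, 101 and 138 in the control mice, a log2 change of 0.10 (95% interval -0.31 to 0.50, limma adjusted p = 0.864). In each group 1 mouse stood apart from the other two, in opposite directions. Slc12a7 had 176, 135 and 134 in the knockout mice and 149, 151 and 165 in the control mice at its brighter probe set, a change of -0.07 (95% interval -0.38 to 0.25). Its dim second probe set had 7.49, 21.6 and 22.2 in the knockout mice and 51.6, 13.2 and 28.1 in the control mice, and the interval of its change, -1.28 to 0.37, was the widest of the members. The groups overlapped in all 3 of these probe sets.

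Kcnn4 was the other member with higher values in every knockout mouse. Its brighter probe set had intensities of 2838, 3249 and 3629 in the knockout mice, against 2360, 1740 and 2273 in the control mice. The other had 1721, 1742 and 1926 in the knockout mice, against 1393, 1091 and 1249 in the control mice. Both put knockout mouse 3 highest and control mouse 2 lowest, and in neither did the groups overlap. The means of the brighter one were 3239 ± 395 in the knockout mice and 2125 ± 336 in the control mice (SD, n = 3 each), a ratio of 1.52. The log2 changes were 0.61 ± 0.16 and 0.53 ± 0.13 (SE), with 95% intervals from 0.22 to 1.00 and from 0.23 to 0.83. Neither passed over all probe sets (limma, adjusted p = 0.237 and 0.212). Both were called when variances were moderated robustly along an intensity trend (adjusted p = 0.0139 and 0.00738), as were 3.21% of all probe sets. The suffix _a_at marks both as reading several transcripts of the gene, so they are not independent measures of it.

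**Figure D4:**
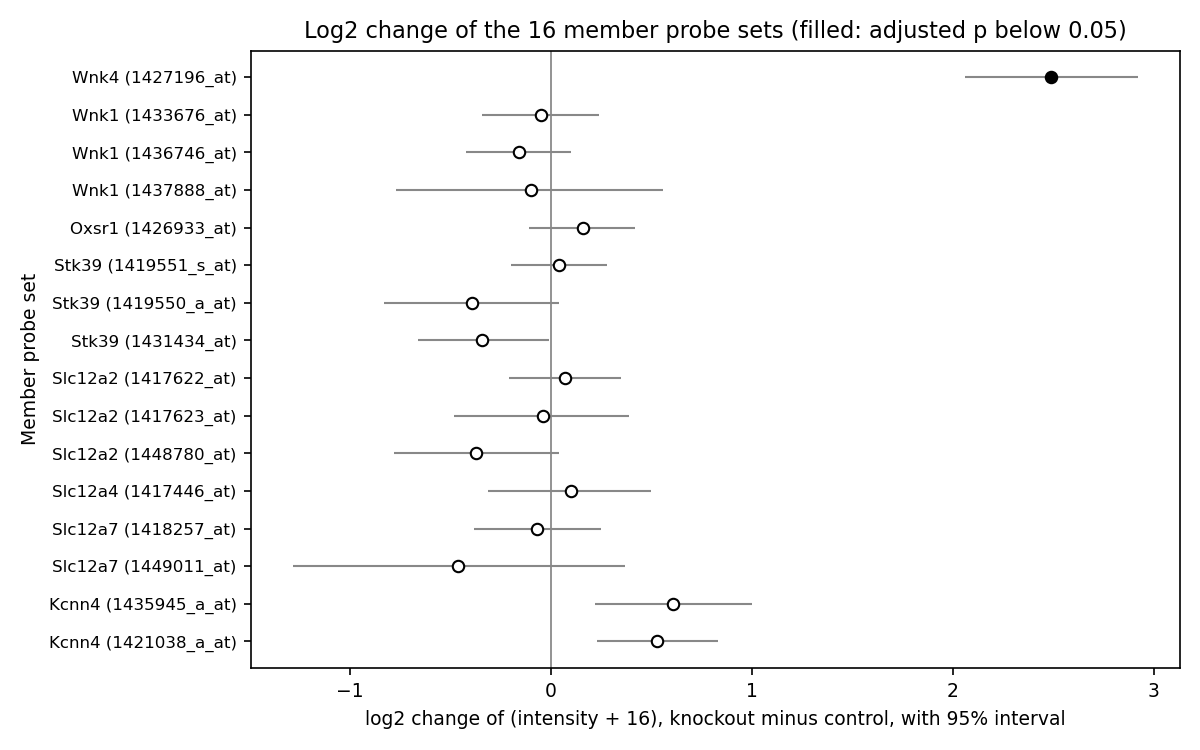
Log2 change of (intensity + 16), knockout minus control, with its 95% interval (horizontal axis) for the 16 member probe sets; the filled point passed the adjusted p threshold. Wnk4 lies at 2.49, both probe sets of Kcnn4 lie above 0 with intervals that leave out 0, and the dim probe set of Slc12a7 has the widest interval.

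Erythroid markers stood higher in the knockout mice, as Kcnn4 did. Of 7 measured erythroid markers, 6 had knockout values wholly above the control values (12.3% of all genes), with a median log2 change of 0.62, while 0 passed the test (limma; 5 had an unadjusted p under 0.05, against 12.7% of all genes, and 4 were called with the intensity trend, against 3.21% of all probe sets). Their summed intensity was 89789 to 98574 in the knockout mice and 69676 to 85192 in the control mice. All 6 measured B cell markers, by contrast, had log2 changes below 0, as did 7 of the 8 neutrophil markers, while 49.8% of all genes lay above 0. The B cell sums were 7429 to 10000 in the knockout mice and 10630 to 12523 in the control mice. Knockout values lay wholly below control values in 2 B cell, 5 neutrophil and 2 basophil and mast cell markers (8.91% of all probe sets), and 0 passed the test. The markers are read at their brightest probe sets, for which the share lying below was not counted. With the intensity trend 2 B cell, 0 neutrophil and 1 basophil and mast cell marker were called down (3.21% of all probe sets, in either direction). The 4 basophil and mast cell markers had sums of 3727 to 5287 in the knockout mice and 5802 to 6174 in the control mice. Those of the 7 macrophage markers overlapped, at 10269 to 10935 in the knockout mice and 9102 to 10376 in the control mice, as did those of the 4 megakaryocyte markers, at 1361 to 2350 in the knockout mice and 1557 to 1958 in the control mice. Of the macrophage markers 1 had knockout values wholly above the control values (12.3% of all genes). The same marker was called up with the intensity trend (3.21% of all probe sets, in either direction). The part that the makeup of the samples has in the values of Kcnn4 and the other members was not tested. In sorted bulk samples, fewer cells of a type and less RNA per cell cannot be told apart.

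Around the 8 genes, the regulators of WNK signalling and the remaining cation-chloride cotransporters showed 0 calls in either direction among 13 measured genes (limma). At an unadjusted p under 0.05 (limma), 1 was up and 2 were down, against 12.7% of all genes in either direction. With the intensity trend 1 was called down, against 3.21% of all probe sets in either direction. The median log2 change of the 13 genes was 0.01, against 0.00 for all genes. Sgk1, a kinase of salt transport induced by steroid hormones, had intensities of 1219, 1205 and 1132 in the knockout mice and 1342, 1745 and 1612 in the control mice. Its log2 change was -0.39 ± 0.13 (SE, adjusted p = 0.313), without overlap. Sgk1 was the gene called down with the intensity trend (limma, adjusted p = 0.0457). Nedd4l, a ubiquitin ligase that removes sodium channels from the membrane and is itself restrained by Sgk1, had 227, 255 and 243 in the knockout mice and 290.4, 342 and 319.9 in the control mice. Its brightest probe set had a log2 change of -0.37 (adjusted p = 0.272), while the 5 dimmer ones ran from -0.47 to 0.50. Both kept the knockout values below the control values at the brightest probe set (8.91% of all probe sets), and neither passed with the settings reported.

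Wnk3, another WNK kinase, had intensities from 9.06 to 14.4 in the knockout mice and of 6.78, 1.58 and 2.23 in the control mice, a log2 change of 0.52 (limma, adjusted p = 0.253) that was 1.65 with a pseudocount of 1 and 0.17 with one of 64. These values lie among the dimmest of the arrays, at percentile 13.6 in the knockout mice and 2.3 in the control mice. Slc12a1, the kidney form of the sodium-potassium-chloride importer, had 36.8, 20.3 and 41.0 in the knockout mice and 45.8, 42.8 and 45.7 in the control mice, a change of -0.35 (adjusted p = 0.499). The groups did not overlap in either gene (19.5% of all probe sets, in either direction), and both signals were low.

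Other ion and water transport genes showed 0 calls among 19 measured genes too (limma; 5 up and 1 down at an unadjusted p under 0.05, against 12.7% of all genes, and 3 up and 1 down with the intensity trend, against 3.21% of all probe sets), with a median log2 change of 0.14. Piezo1, the stretch-activated channel that lets calcium into red cells and so can open Kcnn4, had intensities of 616, 649 and 756 in the knockout mice and 343, 387 and 339.9 in the control mice. Its log2 change was 0.89 ± 0.12 (SE, adjusted p = 0.0812). Its knockout values all lay well above the control values. With 1 probe set per gene in the fit it passed (limma, adjusted p = 0.0463). It also passed with a pseudocount of 64 (0.00928), among the brightest 50% of probe sets (0.00813) and with the intensity trend (0.000373). It did not pass with the replicate block (0.431) or when any 1 mouse was left out. Clcn3, a chloride-proton exchanger of endosomes, had 4089, 4579 and 4811 in the knockout mice and 3065, 2176 and 2760 in the control mice, a change of 0.76 (adjusted p = 0.169). All 5 of its probe sets had knockout values above control values (10.6% of all probe sets), with changes from 0.70 to 0.83. They read 1 gene in the same mice, so they are not independent measures of it. Aqp9, a channel for water and glycerol, had 1499, 1569 and 1613 in the knockout mice and 1089, 850.4 and 876 in the control mice, a change of 0.73 (adjusted p = 0.123). Atp1b1, a beta subunit of the sodium pump, had lower values in the knockout mice, with 2176, 2866 and 2009 in the knockout mice and 3490, 4060 and 4086 in the control mice, a change of -0.73 (adjusted p = 0.191). Of its 5 probe sets, which are not independent measures either, 4 had knockout values below control values (8.91% of all probe sets). The dimmest, at 0.06, overlapped. With the intensity trend Piezo1, Clcn3 and Aqp9 were the genes called up, and Atp1b1 was the gene called down.

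**Figure D5:**
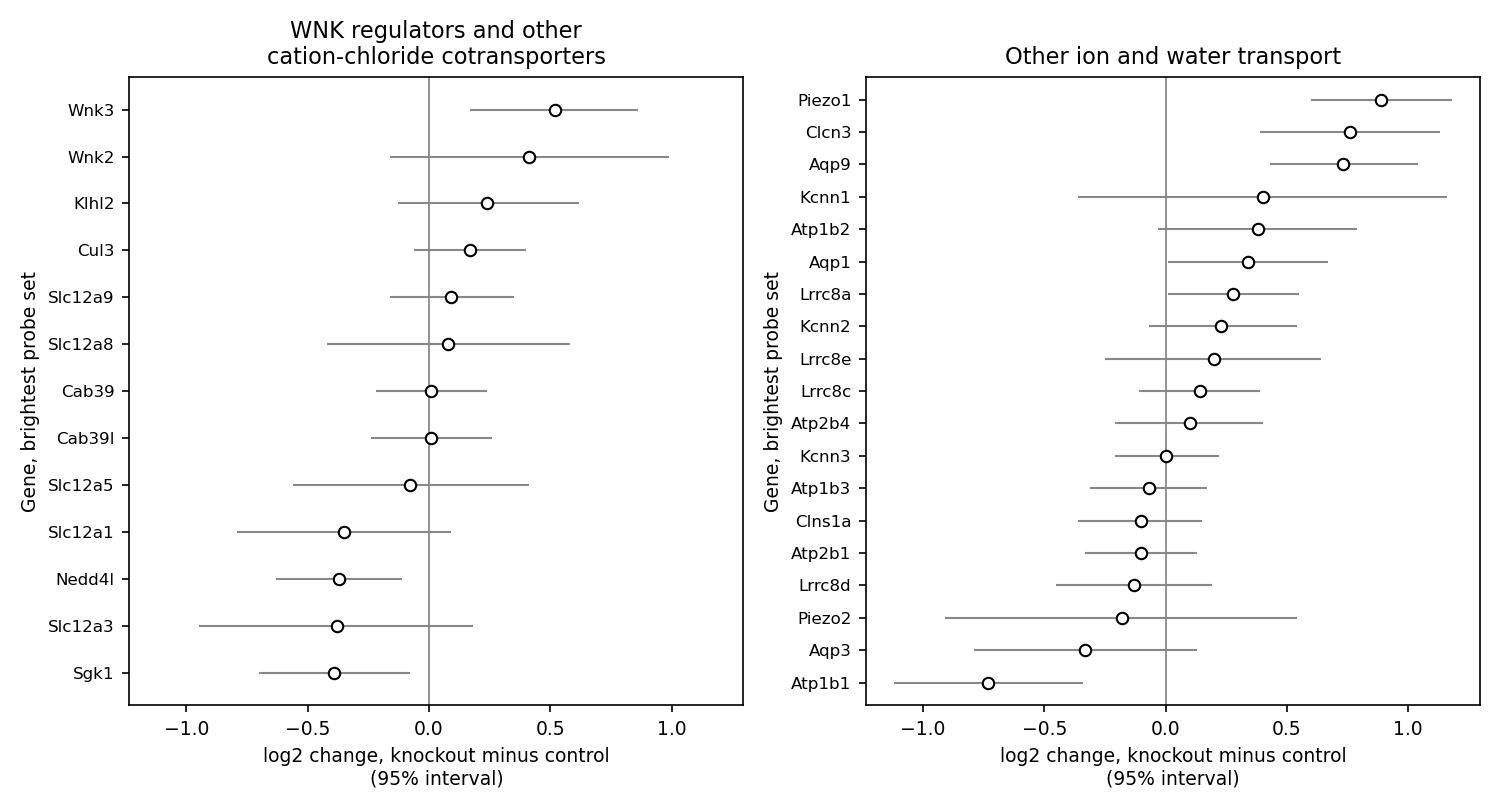
Log2 change, knockout minus control, with its 95% interval (horizontal axis) for 13 regulators and other cotransporters (left) and 19 other ion and water transport genes (right), each at its brightest probe set. Open points did not pass the adjusted p threshold; Piezo1 at 0.89 and Atp1b1 at -0.73 mark the ends of the right panel.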

How the data were processed

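Affymetrix arrays of 3 knockout and 3 control mice were compared. The authors deposited 1 table of linear intensity values per probe set and array; per the labels' protocols, Trizol RNA was made into biotinylated cRNA, and the sources used here give neither the probe summary nor the scaling. Members, lists and tests were chosen with earlier results of these data known. Between 775 and 874 values per array were exactly 1, none of them in a member. Intensities became log2(intensity + 16), without further normalization, since array medians and interquartile ranges differed by at most 0.057 and 0.070 on that scale. All 6 arrays entered a two-sided fit in limma 3.58.1 under R 4.3.3 (lmFit, then eBayes with no trend) with no filter, with Benjamini-Hochberg adjustment over 45037 probe sets at 0.05; the fit was tested on simulated data. The labels name separate mice. A gene stood for its brightest single-gene probe set, with symbols updated through Entrez IDs to RefSeq on GRCm38.p6 (34741 of 34945 matched). The genes named are all 8 members, from each wider list those past the threshold and the 4 with the smallest p, the 5 measured neighbours of Wnk4 on each side and the 5 genes most like it; Bcl11a and Hba-x were checks, and Gng13 was named after its values were seen. Some genes of the wider and marker lists are not reported here. Alternatives were 2 normalizations, 2 pseudocounts, a filter on dim probe sets, an intensity trend, array weights, 1 probe set per gene, the mean of a gene's probe sets, a replicate block and leaving out each mouse.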

Additional observations from a re-analysis of the deposited data

How the results depend on the processing

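Of all probe sets, 66 passed with the settings reported, 38 with a pseudocount of 1, 558 with one of 64, 853 when only the brightest 50% were tested, 1445 with an intensity trend and robust moderation, 14 with the mouse number as a replicate block, and 27 to 41 when 1 mouse was left out. Of the member probe sets 1 passed with the settings reported and 3 with the intensity trend (Wnk4 and both of Kcnn4). With a pseudocount of 1 or the replicate block 0 passed (limma), and 0 to 1 did when 1 mouse was left out. At an unadjusted p under 0.05 (limma) there were 4 of 16 with a pseudocount of 1 and 3 of 16 with the block. The share of all probe sets was not counted for these settings, so these counts are no result about the members. In the brightest 50% the 1 that passed was of Kcnn4 (adjusted p = 0.0458), because Wnk4 is not among them. The median log2 change of the members was 0.08, and 0.00 when the probe sets of each gene were averaged; under the other alternatives it lay between 0.05 and 0.10. The labels name no pairing of the mice. Deviations of same-numbered mice correlated at -0.035, -0.014 and -0.040 across probe sets, which cannot show whether the mice were paired. The block left Wnk4 without its call (limma, adjusted p = 0.152). Of 346 values of single probe sets under alternatives, 325 kept their side of the threshold, 5 lost a call, all of Wnk4, and 16 gained one. The log2 change of Wnk4 lay between 1.55 and 3.23. The dim probe sets, without detection calls, are limited by how low values were treated before deposit.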
